A study of Homo sapiens with 6 samples.

Results

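Genes that carry cells through G2 and mitosis were examined in PC9 cells, a human lung adenocarcinoma line with an activating deletion in EGFR, after knockdown of the splicing factor RBM10. The list held 50 genes given by name, and all 50 were found among the 16306 genes of the table. The list is one of names, with no threshold on a measured value, and it was chosen with earlier results of these data known. The 3 control libraries (sh-NC) carried a non-targeting short hairpin RNA and the 3 knockdown libraries (shRBM10) a hairpin against RBM10. The labels do not say which RBM10 hairpin was used, or whether libraries of a group came from separate cultures, so p-values measure only the spread between these libraries. They give no time or further treatment.

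Entry into mitosis is driven by CDK1 bound to cyclin B, which CDC25 phosphatases activate, while PLK1 and the Aurora kinases build the spindle and the chromosomal passenger complex corrects faulty attachments. The spindle checkpoint holds the anaphase-promoting complex (APC/C) inactive until every kinetochore is attached, and CDC20 then directs it against securin (PTTG1) and the B cyclins. Many of these genes are transcribed together late in the cycle by FOXM1, B-MYB and the MuvB core, so that their mRNA levels in a culture follow the share of cells in G2 and mitosis.

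Total counts ran from 16606401 to 18864241 per library, and the 50 genes took 0.162 to 0.227% of them. Sh-NC replicate 2 stood apart, with a normalization factor of 0.738 against 1.03 to 1.08 in the other 5 libraries and 14% of its counts in its 10 most abundant genes against 10.03 to 11.9%. Sh-NC replicates 1 and 3 were the most alike, with a chi-square of 2.93 per degree of freedom over genes, against at least 29.7 for every other pair. ShRBM10 library C lay nearer to these controls (29.8 and 30.2) than to libraries A and B of its own group (97.9 and 53.9). The 7 epithelial markers were abundant in all libraries (EPCAM 4561 to 6566 counts, KRT8 162988 to 347195). The protocol text also names retinas. Of 8 retinal markers 4 were listed, summing to 5.73 to 6.76 per 1000000 counts in sh-NC and 4.52 to 6.02 in shRBM10 libraries. These sums used library totals with no normalization factor. Rhodopsin, RCVRN, SAG and GNAT1 had no row. Fibroblast, immune and endothelial markers summed to at most 11.02 on the same scale.

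RBM10 itself was lower in every knockdown library. Controls 1, 2 and 3 held 1578, 864 and 1628 RBM10 counts, and knockdown libraries A, B and C held 523, 537 and 700. On the normalized scale this was 74.1 ± 8.45 counts per 1000000 normalized counts (CPM) against 31.3 ± 4.65 (SD, n = 3 each). The log2 fold change was -1.24 (SE 0.23, edgeR adjusted p = 0.100).

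All 50 genes passed the filter on low counts. They split evenly, 25 being higher and 25 lower in shRBM10 libraries, with a median log2 fold change of 0.048 beside 0.027 over the 12620 genes tested. Scaling by library size alone, with no normalization factor, moved the latter to 0.16 and the median of the 50 to 0.12. When edgeR's adjusted p had to be under 0.05 and the log2 fold change beyond 1 in either direction, none of the 50 was called, beside 0.0158% of all genes. At an unadjusted p of 0.05 with the same fold limit, 1 gene was higher (BUB1B) and 3 were lower (PTTG1, BIRC5 and FOXM1), beside 10.1% of all genes higher and 1.53% lower. Without the fold limit 4 were higher and 13 lower, beside 15.7 and 8.6% of all genes. DESeq2 called 3 genes lower, PTTG1 (adjusted p = 0.0134), BIRC5 (adjusted p = 0.0120) and FOXM1 (adjusted p = 0.0230), and none higher, beside 1% of all genes lower and 3.64% higher. Limma-voom called 0.

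Read against the spread between libraries, 17 genes lay lower in every shRBM10 library than in any sh-NC library, as did 16.2% of all genes. They were CCNB2, CDC25B, CDC25C, PLK1, AURKA, CDC20, UBE2C, PTTG1, CDCA3, SPC24, CENPA, AURKB, BIRC5, CDCA8, KIF2C, KIF22 and FOXM1. Only NDC80 lay higher in every shRBM10 library, where 13.8% of all genes did so. Without sh-NC replicate 2 the counts were 19 lower and 2 higher, beside 28.5 and 18.3% of all genes. Without shRBM10 library C they were 19 lower and 17 higher, beside 30.5 and 33% of all genes. Among the 25 higher genes, libraries A and B exceeded the highest sh-NC value for 19 and 24 genes and library C for 1. Among the 25 lower genes, libraries A, B and C lay under the lowest sh-NC value for 21, 18 and 23. The higher and lower genes were sorted by the mean of these same libraries, so such counts are partly built in. They were not made over all genes. In bulk RNA, fewer cells in G2 or mitosis and less of an mRNA per cell cannot be told apart.

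**Figure D1:**
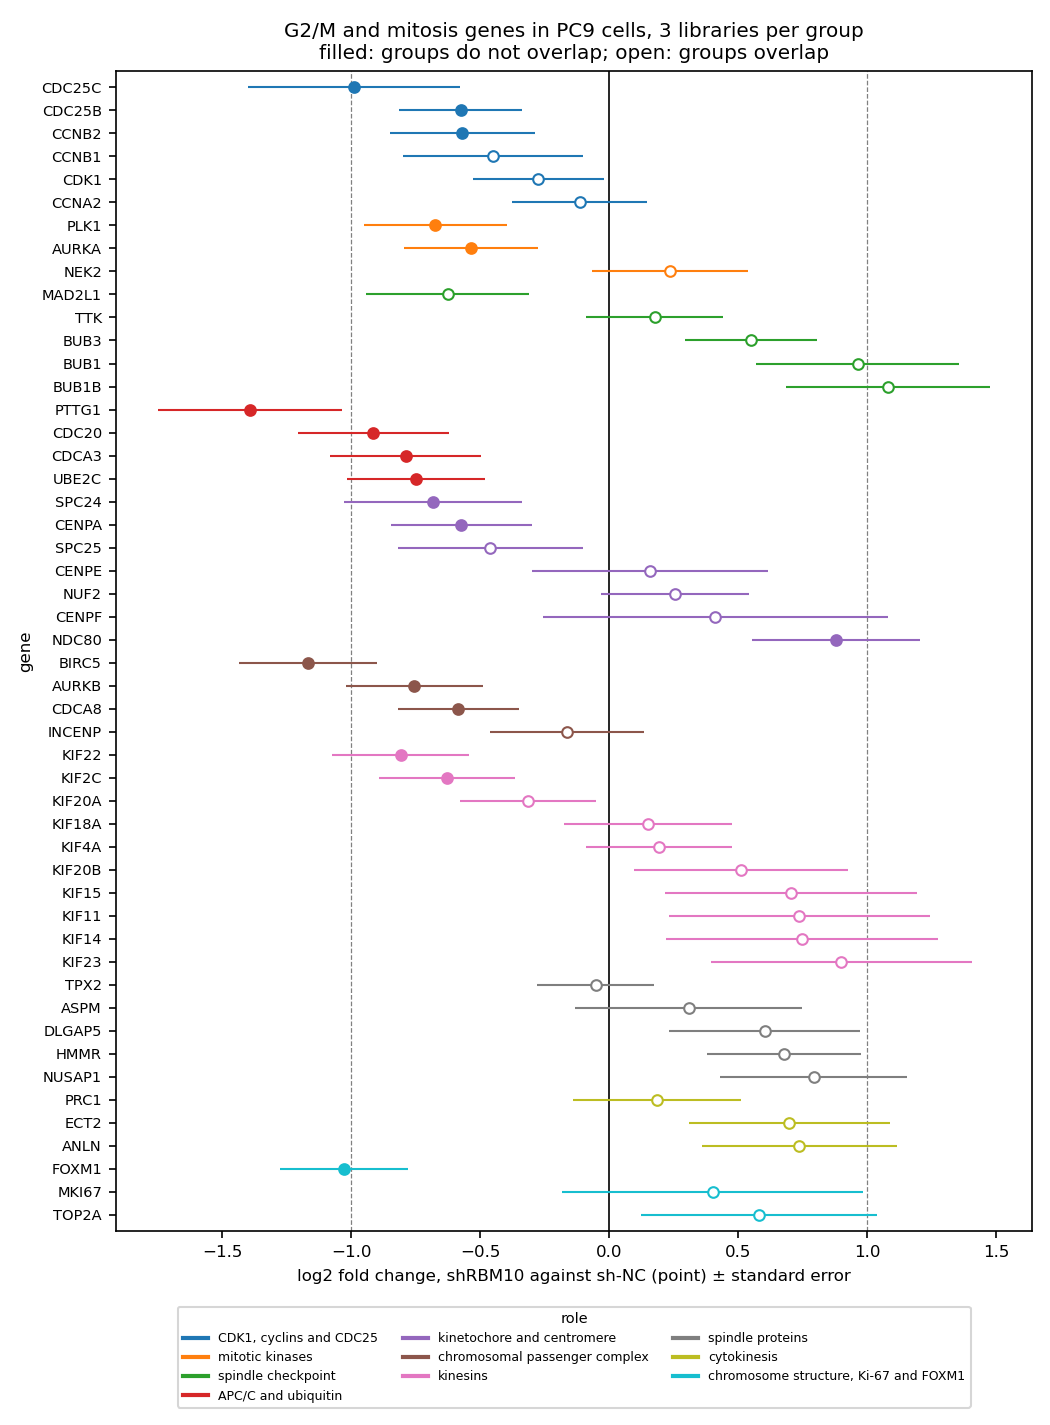
Log2 fold change (x axis, shRBM10 against sh-NC, ± standard error) of each of the 50 genes (y axis), coloured by role, with filled points where the 3 libraries of each group do not overlap and dashed lines at -1 and 1. The 4 genes of the APC/C group, at -0.75 to -1.39, and the 4 of the passenger complex lie left of 0, and the cytokinesis genes with most spindle and kinesin genes lie right of it with open points.

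Promoters of 43 of the 50 genes were matched in RefSeq (GRCh38.p14), each covering 250 bases before and 50 after the transcription start. The genes without a match were AURKA, TTK, BUB3, UBE2C, BIRC5, TPX2 and FOXM1. The CHR element to which the MuvB core binds was searched as TTTGAA or TTCGAA, and the box bound by NF-Y as CCAAT, both on either strand. CHR letters stood in 32 of the 43 promoters (74.4%) and in 16.6% of all 27305 promoters of this length. TTTGAA alone was held by 69.8% and by 15.4% of all promoters. CCAAT stood in 34 of 43 (79.1%, beside 35.7% of all), CCAAT at 2 or more places in 48.8% (beside 11.3%), and both elements in 62.8% (beside 6.58%). Among genes with a fold change above 0, 21 of 23 promoters held CHR letters, and among those below 0, 11 of 20. CCAAT stood in 17 of 23 and in 17 of 20 of them. Of the 17 genes lower without overlap, 13 had a promoter and 7 of these held CHR letters. AURKA, UBE2C, BIRC5, TPX2 and FOXM1, which lacked a promoter, were below 0, and TTK and BUB3 above it. The AURKB window (chr17:8210176-8210475), without CHR letters, lay inside the gene (8204731 to 8210575), so sequence upstream of the gene was not searched. Such matches describe letters only, and these counts carry no test. The promoters printed here, all on the + strand, belong to 4 genes that were lower and 2 that were higher, so that their layouts can be set beside the values that follow. They are examples and do not stand for either direction. Both higher genes printed lack CCAAT, unlike most promoters of genes above 0. Capitals mark CHR and CCAAT letters on either strand (TTCAAA and ATTGG are the reverse forms). CCNB2 lies at chr15:59104896-59105195, PLK1 at chr16:23678639-23678938, CDC20 at chr1:43358731-43359030, PTTG1 at chr5:160421605-160421904, BUB1B at chr15:40160819-40161118 and NDC80 at chr18:2571307-2571606.
CCNB2: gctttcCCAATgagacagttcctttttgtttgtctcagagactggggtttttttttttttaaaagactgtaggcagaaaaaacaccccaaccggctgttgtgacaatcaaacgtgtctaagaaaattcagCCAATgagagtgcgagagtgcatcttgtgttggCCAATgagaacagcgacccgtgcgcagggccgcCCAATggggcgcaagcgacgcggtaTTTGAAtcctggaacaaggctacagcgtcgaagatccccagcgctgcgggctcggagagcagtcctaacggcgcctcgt
PLK1: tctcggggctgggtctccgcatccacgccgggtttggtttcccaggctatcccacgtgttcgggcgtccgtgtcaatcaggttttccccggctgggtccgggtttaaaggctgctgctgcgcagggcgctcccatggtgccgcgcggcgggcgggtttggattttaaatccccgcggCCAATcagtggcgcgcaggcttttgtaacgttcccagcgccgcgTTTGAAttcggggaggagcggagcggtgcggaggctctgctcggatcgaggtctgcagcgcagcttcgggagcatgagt
CDC20: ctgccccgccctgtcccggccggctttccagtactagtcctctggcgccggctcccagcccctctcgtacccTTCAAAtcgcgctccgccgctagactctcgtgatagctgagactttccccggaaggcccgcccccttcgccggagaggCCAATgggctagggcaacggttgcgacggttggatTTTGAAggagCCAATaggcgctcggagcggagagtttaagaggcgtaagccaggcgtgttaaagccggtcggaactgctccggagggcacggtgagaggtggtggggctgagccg
PTTG1: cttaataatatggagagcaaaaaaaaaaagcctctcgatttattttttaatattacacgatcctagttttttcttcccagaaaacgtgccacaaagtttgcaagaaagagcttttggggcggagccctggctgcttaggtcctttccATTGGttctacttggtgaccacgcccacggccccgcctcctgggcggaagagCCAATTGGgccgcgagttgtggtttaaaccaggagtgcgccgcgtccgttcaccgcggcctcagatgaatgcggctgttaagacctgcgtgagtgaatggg
BUB1B: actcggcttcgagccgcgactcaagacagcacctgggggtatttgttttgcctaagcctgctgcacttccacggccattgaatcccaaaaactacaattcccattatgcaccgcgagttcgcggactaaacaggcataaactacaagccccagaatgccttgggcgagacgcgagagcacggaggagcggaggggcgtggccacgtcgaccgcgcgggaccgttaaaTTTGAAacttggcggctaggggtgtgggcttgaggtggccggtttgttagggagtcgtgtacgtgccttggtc
NDC80: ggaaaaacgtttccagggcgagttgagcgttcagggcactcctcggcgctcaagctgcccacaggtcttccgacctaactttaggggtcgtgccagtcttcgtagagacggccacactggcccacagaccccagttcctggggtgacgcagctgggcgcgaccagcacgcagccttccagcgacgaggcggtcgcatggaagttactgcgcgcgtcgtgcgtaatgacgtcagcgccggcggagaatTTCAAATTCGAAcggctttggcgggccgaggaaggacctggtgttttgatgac
The CHR letters of CCNB2 and PLK1 began at position -29 and those of BUB1B at -23, counted from the start site with no position 0. The NDC80 window held a pair of abutting CHR matches and no CCAAT. PTTG1 showed no CHR letters and CCAAT at 3 places, of which a pair overlap. CCNB2 held CCAAT at 4 places.

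The genes that drive mitotic entry were all lower in the mean. None of the 6 genes of the CDK1, cyclin and CDC25 group had a fold change above 0 (1 did when scaled by library size alone), and their median log2 fold change was -0.51. Without sh-NC replicate 2 the median was -0.27 and CCNB1 lay above 0. CDC25C, a phosphatase that activates CDK1, had 22.0, 65.0 and 23.5 CPM in the sh-NC libraries and 17.4, 20.8 and 17.3 in the shRBM10 libraries. Sh-NC replicate 2 was far above the other controls, yet the groups did not overlap. The log2 fold change was -0.99 (SE 0.41, edgeR adjusted p = 0.190) and -0.38 without that replicate. CDC25B, which acts earlier in G2, had 84.8, 77.9 and 89.5 CPM against 46.5, 50.4 and 72.1, a log2 fold change of -0.58 (SE 0.24, adjusted p = 0.190) that was -0.37 with GC content and length removed. Here the controls were tight and library C was the nearest to them. CCNB2, one of the B cyclins, had 27.3, 45.2 and 27.7 CPM against 21.4, 26.02 and 20.1 (log2 fold change -0.57, SE 0.28). CDK1 had 133, 197 and 140 CPM against 119, 161 and 109, and its groups overlapped (log2 fold change -0.27, SE 0.25, adjusted p = 0.491). The remaining cyclins, CCNA2 and CCNB1, overlapped too.

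Of the mitotic kinases, PLK1 and AURKA were lower without overlap and NEK2 was not. PLK1, which acts in centrosome maturation and mitotic entry, had 57.8, 82.2 and 63.2 CPM against 28.8, 46.7 and 51.7, a log2 fold change of -0.67 (SE 0.28, edgeR adjusted p = 0.188) that was -0.35 once trends on GC content and length were removed. AURKA, the Aurora kinase of the spindle poles, had 59.3, 93.5 and 60.6 CPM against 51.2, 55.2 and 40.7 (log2 fold change -0.54, SE 0.26). Library A was the lowest for PLK1 and library C for AURKA. NEK2, a kinase of centrosome separation, had a log2 fold change of 0.24 (SE 0.30), which turned to -0.27 with those trends removed.

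CDC20, UBE2C, PTTG1 and CDCA3, whose products act with the APC/C or are destroyed through it, lay on the same side. All 4 were lower, all 4 without overlap and all 4 at an unadjusted edgeR p under 0.05, beside 16.2 and 8.6% of all genes. Their median log2 fold change was -0.85, with -0.67 without sh-NC replicate 2 and -0.55 with GC content and length removed. PTTG1 (securin, chromosome 5, 160421855 to 160428744), which restrains separase until anaphase, had 81.5, 195 and 83.5 CPM in sh-NC and 37.9, 54.2 and 44.9 in shRBM10 libraries. Every knockdown library lay well under the lowest control, and sh-NC replicate 2 stood far above the other controls. The log2 fold change was -1.39 (SE 0.36, edgeR adjusted p = 0.144) and -0.93 without that replicate. PTTG1 has near-identical retrocopies, so that reads may be shared with them. CDC20 (chromosome 1, 43358981 to 43363203), the APC/C activator that the checkpoint restrains, had 73.7, 112 and 74.2 CPM against 30.6, 52.4 and 54.6, a log2 fold change of -0.92 (SE 0.29, adjusted p = 0.156) that was -0.53 with GC content and length removed. UBE2C, the ubiquitin-conjugating enzyme that starts chains for the APC/C, had 102, 166 and 98.8 CPM against 59.8, 79.6 and 78.6 (log2 fold change -0.75, SE 0.27). CDC20 and UBE2C shared the same layout, with sh-NC replicate 2 on top and library A at the bottom.

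Checkpoint genes went the other way in the mean, with 4 of 5 higher and a median log2 fold change of 0.55, which turned to -0.47 with GC content and length removed and to 0.095 when sh-NC replicate 2 was left out as well. None separated the groups. BUB1B (BubR1, chromosome 15, 40161069 to 40221123), a part of the complex that holds CDC20, had 6.71, 4.10 and 6.43 CPM in sh-NC and 16.4, 13.97 and 6.27 in shRBM10 libraries. Libraries A and B were high and library C lay among the controls. The log2 fold change was 1.08 (SE 0.40, edgeR adjusted p = 0.171), 0.81 without sh-NC replicate 2 and 0.48 with GC content and length removed. BUB1, the kinase that recruits checkpoint proteins to kinetochores, had 12.4, 6.71 and 12.1 CPM against 25.6, 24.8 and 10.7 (log2 fold change 0.96, SE 0.39, and 0.33 with GC content and length removed). BUB3, which docks BUB1 and BUB1B, had 60.4, 72.4 and 60.4 CPM against 110, 108 and 65.4, a log2 fold change of 0.55 that turned to -0.49 with GC content and length removed and to 0.095 when sh-NC replicate 2 was left out as well. MAD2L1 was the 1 checkpoint gene with a fold change below 0, and TTK overlapped.

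Kinetochore and centromere genes were mixed, with 4 of 7 higher and a median log2 fold change of 0.16, which was -0.18 without sh-NC replicate 2 and -0.41 with GC content and length removed. NDC80 (chromosome 18, 2571557 to 2616635), the microtubule-binding subunit of the outer kinetochore, had 9.33, 8.35 and 9.18 CPM in sh-NC and 21.5, 17.8 and 10.1 in shRBM10 libraries. Library C was just above the highest control. The log2 fold change was 0.88 (SE 0.33, edgeR adjusted p = 0.172), and 0.28 with GC content and length removed. SPC24, of the same NDC80 complex, lay on the opposite side with 10.46, 20.9 and 10.2 CPM against 8.72, 7.61 and 9.46 (log2 fold change -0.68, SE 0.34, -0.35 without sh-NC replicate 2 and -0.41 with GC content and length removed). CENPA, the histone H3 variant that marks the centromere, had 18.0, 22.7 and 19.7 CPM against 10.8, 13.2 and 16.5 (log2 fold change -0.57, SE 0.27). Subunits of 1 complex thus took opposite signs, and the difference between them was not tested.

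All 4 genes of the chromosomal passenger complex were lower in the mean, 3 of them without overlap, beside 16.2% of all genes. Their median log2 fold change was -0.67, with -0.62 without sh-NC replicate 2 and -0.41 with GC content and length removed. BIRC5 (survivin, chromosome 17, 78214253 to 78225635), which anchors the complex at the centromere, had 117, 188 and 118 CPM in sh-NC and 50.2, 65.2 and 72.8 in shRBM10 libraries. The gap between the groups was wider than the spread within the knockdown group but narrower than that within the controls. The log2 fold change was -1.17 (SE 0.27, edgeR adjusted p = 0.133), -0.99 without sh-NC replicate 2 and -1.01 with GC content and length removed. AURKB, the kinase of the complex, had 49.0, 72.7 and 53.5 CPM against 25.9, 37.5 and 40.3 (log2 fold change -0.76, SE 0.27, and -0.38 with GC content and length removed). CDCA8 (borealin) had 49.8, 55.1 and 47.0 CPM against 27.0, 35.1 and 39.0 (log2 fold change -0.59, SE 0.24). For both genes library A was the lowest. INCENP, the scaffold, overlapped.

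Kinesins split by gene. Of 10, 7 were higher, with a group median of 0.35 that was 0.088 without sh-NC replicate 2 and -0.13 with GC content and length removed, yet the 2 without overlap were both lower. KIF22 (Kid), which pushes chromosome arms towards the spindle equator, had 135, 190 and 143 CPM against 64.6, 92.7 and 109, a log2 fold change of -0.81 (SE 0.26, edgeR adjusted p = 0.157) that was -0.49 with GC content and length removed. KIF2C (MCAK), a microtubule depolymerase, had 82.2, 141 and 90.2 CPM against 57.1, 73.6 and 71.7 (log2 fold change -0.63, SE 0.26). KIF23, a centralspindlin motor of cytokinesis, had 13.7, 3.50 and 12.4 CPM against 22.3, 23.7 and 9.67. Its log2 fold change was 0.90 (SE 0.51), 0.42 without sh-NC replicate 2, and -0.076 with that replicate left out and GC content and length removed. Library C lay under 2 of the 3 controls.

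Spindle and cytokinesis genes had no gene whose groups separated. The 5 spindle genes had a median log2 fold change of 0.60 and the 3 cytokinesis genes one of 0.70, but with GC content and length removed these medians were -0.080 and -0.094. HMMR, a spindle assembly protein, had 11.6, 13.7 and 14.6 CPM against 24.1, 25.6 and 14.3, a log2 fold change of 0.68 (SE 0.30, edgeR adjusted p = 0.202) that was -0.066 with the GC trend removed, 0.082 with GC content and length removed and 0.10 when sh-NC replicate 2 was left out as well. NUSAP1, which bundles microtubules, had 11.8, 11.6 and 11.98 CPM against 27.8, 23.2 and 10.3 (log2 fold change 0.79, SE 0.36, and 0.26 with GC content and length removed). In both genes libraries A and B stood high and library C did not. DLGAP5, a kinetochore-fibre protein, had a log2 fold change of 0.60 (SE 0.37) and of -0.080 with GC content and length removed. ANLN (anillin), the scaffold of the contractile ring, had 39.1, 24.7 and 38.0 CPM against 75.9, 67.3 and 26.7. Its log2 fold change of 0.74 (SE 0.38) turned to -0.11 with GC content and length removed. ECT2, which activates RhoA at the cell equator, moved from 0.70 to -0.094 under the same change, and PRC1, the bundler of the central spindle, from 0.19 to -0.045.

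FOXM1, MKI67 and TOP2A differed from each other. FOXM1 (chromosome 12, 2857680 to 2877174), the transcription factor of many genes of this list, had 153, 117 and 155 CPM in sh-NC and 52.6, 72.6 and 83.1 in shRBM10 libraries. The groups were well apart, and sh-NC replicate 2 was the lowest control here. The log2 fold change was -1.03 (SE 0.25, edgeR adjusted p = 0.137), -1.23 without that replicate and -0.86 with GC content and length removed. MKI67 (Ki-67), the proliferation marker that coats mitotic chromosomes, had 50.3, 7.15 and 53.7 CPM against 42.9, 67.7 and 36.7. Its log2 fold change of 0.40 (SE 0.58) turned to -0.16 without sh-NC replicate 2. TOP2A, the topoisomerase that untangles sister chromatids, had 38.5, 11.9 and 35.5 CPM against 54.1, 52.2 and 22.6, and its log2 fold change of 0.58 (SE 0.46) turned to -0.22 with GC content and length removed.

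**Figure D2:**
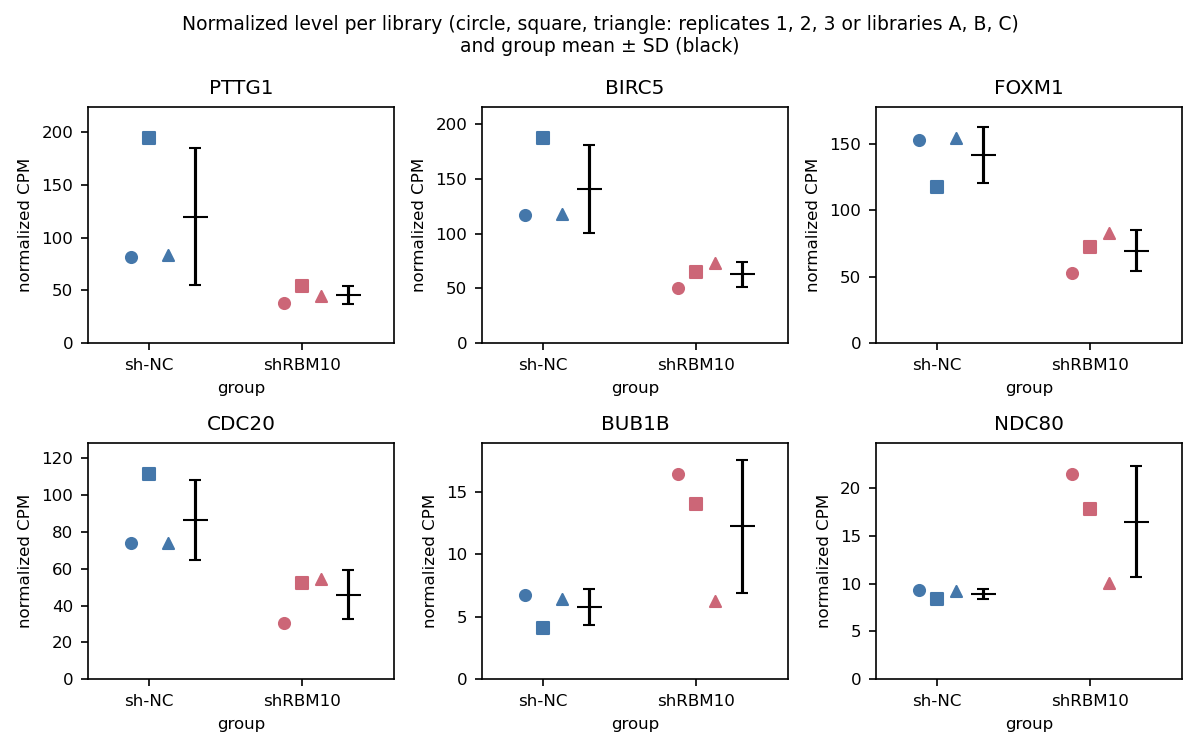
Normalized CPM (y axis, from 0) of 6 genes in each library of the sh-NC and shRBM10 groups (x axis), with the group mean ± SD in black (n = 3). For PTTG1, BIRC5, FOXM1 and CDC20 every shRBM10 point lies below every sh-NC point, while for BUB1B and NDC80 libraries A and B lie high and library C, at 6.27 and 10.1 CPM, lies near the controls.

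The genes not yet described, chosen for mention after their values were seen, showed where sh-NC replicate 2 departed. CENPF, a large kinetochore and nuclear matrix protein, had 32.8, 2.91 and 26.03 CPM in sh-NC and 24.2, 41.1 and 17.04 in shRBM10 libraries. KIF14, a kinesin of cytokinesis, had 6.42, 1.19 and 5.11 CPM against 7.65, 9.44 and 4.50, and KIF11 (Eg5), which pushes spindle poles apart, had 13.8, 3.58 and 13.8 CPM against 22.5, 20.2 and 9.46. In all 3 genes that replicate lay far under both other controls, which overlapped the knockdown libraries. The mean fold changes were above 0, at 0.41 (SE 0.67), 0.75 (SE 0.53) and 0.74 (SE 0.51) on the log2 scale, and -0.18, 0.24 and 0.25 without the replicate. MAD2L1, the checkpoint protein that binds CDC20, and CCNB1, the main mitotic cyclin, showed the reverse. MAD2L1 had 33.6, 66.8 and 34.6 CPM against 28.1, 34.99 and 24.3, and CCNB1 had 68.4, 170 and 75.9 CPM against 74.0, 90.7 and 65.1. Here sh-NC replicate 2 was the highest library, and without it the log2 fold changes went from -0.63 to -0.31 for MAD2L1 and from -0.45 to 0.0055 for CCNB1. TPX2, the activator of AURKA on the spindle, had 68.2, 61.5 and 72.9 CPM against 65.7, 77.0 and 52.7, a log2 fold change of -0.053 (SE 0.23).

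Position within the list followed transcript length and GC content. Over the 50 genes the log2 fold change correlated with log2 length (Pearson r = 0.55, Spearman rho = 0.55) and with GC content (r = -0.68, rho = -0.65). These are across genes of the same 6 libraries, which are not independent replicates, and GC content and length were themselves related (r = -0.38). The 25 longer genes (3201 to 12678 bases) had 19 higher and a median log2 fold change of 0.40, and the 25 shorter ones (914 to 3102 bases) had 6 higher and a median of -0.57. Without sh-NC replicate 2 these medians were 0.10 and -0.37, and with GC content and length removed -0.17 and -0.54. Without sh-NC replicate 2 the fold change correlated with log2 length at r = 0.33 and with GC content at r = -0.69. Over the 50 genes, each shRBM10 library's deviation from the sh-NC mean followed length, with r of 0.57 to 0.64. Over all genes with a length r was 0.29 to 0.43. These deviations share the same sh-NC mean, which holds replicate 2, so a trend in that mean enters each of them. The deviations of the 3 sh-NC libraries sum to 0, so the sign of 1 of them is tied to the others. Their r was 0.75, -0.75 and 0.73 over the 50 genes and 0.57, -0.63 and 0.59 over all genes in replicates 1, 2 and 3. With GC content r was -0.71 and -0.72 in libraries A and B, and -0.40 in library C. Sh-NC replicate 2 was the lowest control for 24 genes and the highest for another 24. The part of these trends in the fold changes was not tested beyond the fits with the trends removed.

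With those trends removed, 42 of the 50 genes were lower and 8 higher, with a median log2 fold change of -0.39 beside -0.036 for the whole table. The trends were fitted over all genes, and a part remained among the 50. Their corrected fold changes still correlated with log2 length (Pearson r = 0.30, Spearman rho = 0.41) and GC content (r = -0.19, rho = -0.22). By edgeR's unadjusted p, 20 were lower and 0 higher, beside 15.3% of all genes lower and 11.4% higher. With sh-NC replicate 2 also left out, 29 of the 50 lay lower without overlap, beside 28.1% of all genes. EdgeR with the fold limit, in all 6 libraries, called 2 of the 50, beside 1.3% of all genes. These were PTTG1 (log2 fold change -1.14, adjusted p = 0.0277) and BIRC5 (log2 fold change -1.01, adjusted p = 0.0422). FOXM1 (adjusted p = 0.0455) and AURKA (log2 fold change -0.65, adjusted p = 0.0484) passed the p limit but not the fold limit. All 6 genes of the CDK1 group were then lower at an unadjusted p under 0.05, with a median of -0.74, and CDK1 itself stood at -0.70. Lengths were those of the longest annotated coding transcript, which can exceed the form in the cell.

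**Figure D3:**
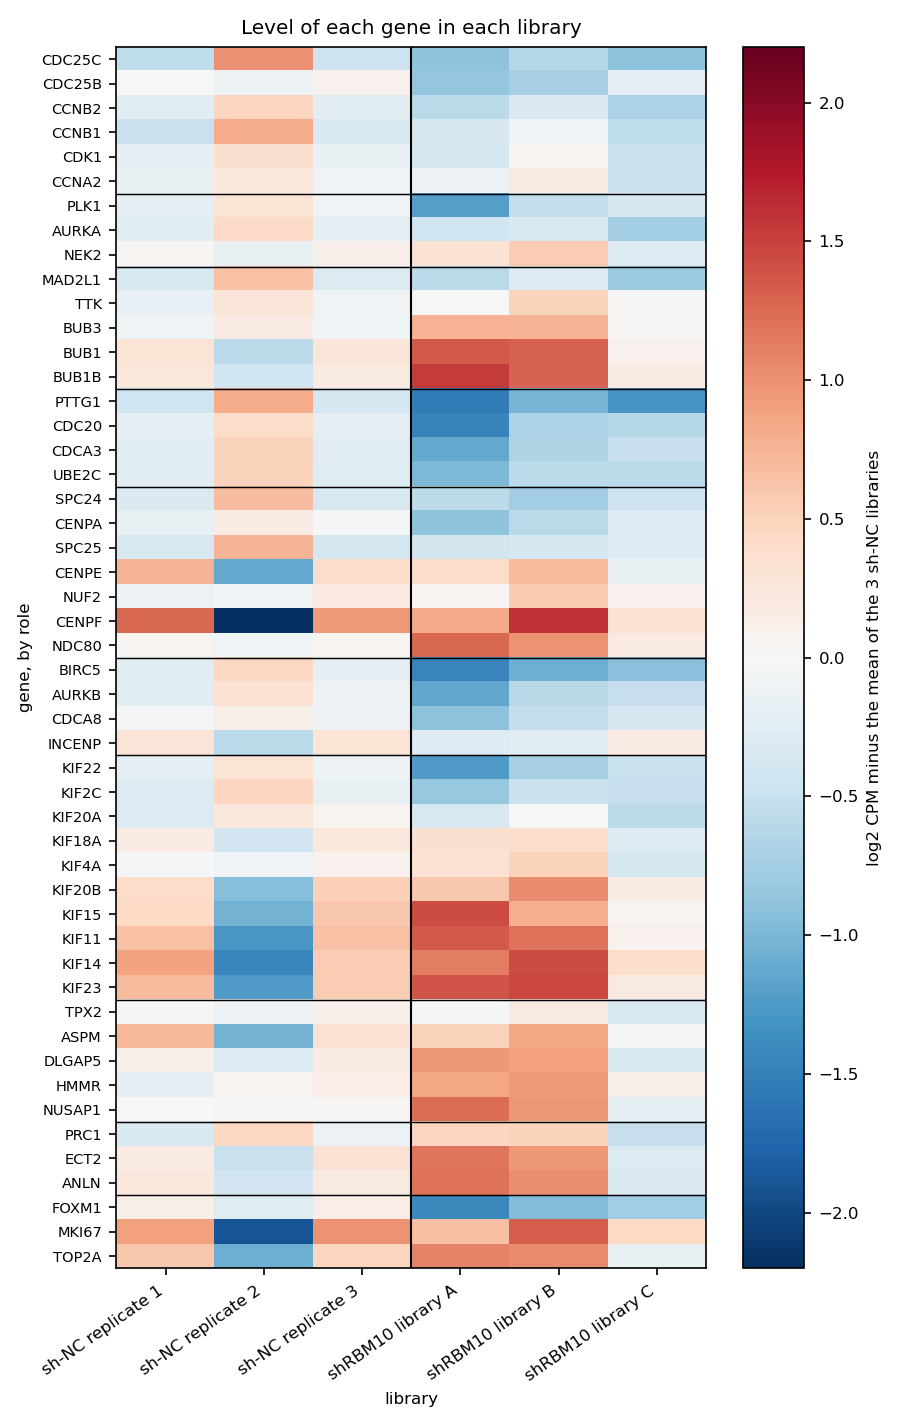
Level of each gene (rows, by role) in each library (columns), as log2 CPM minus the mean of the 3 sh-NC libraries. Sh-NC replicate 2 is blue for CENPF, MKI67 and the long kinesins, down to -2.19, and the shRBM10 libraries are blue for the APC/C and FOXM1 rows and for the passenger complex rows other than INCENP, with library C paler than A and B in most red rows.

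Median deviation from the sh-NC mean over the 50 genes was -0.054, 0.0096 and 0.046 in the sh-NC replicates and -0.025, 0.29 and -0.31 in shRBM10 libraries A, B and C. Libraries B and C of the same group thus lay on either side of the controls.

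Per kilobase of transcript, UBE2C and PTTG1 were the most abundant in sh-NC libraries, at 134 and 112 CPM per kilobase, followed by CDK1 at 80.4 and KIF22 at 62.2. In shRBM10 libraries the levels were 79.5 for UBE2C, 66.4 for CDK1, 42.7 for PTTG1 and 35.5 for KIF22, so that CDK1 passed PTTG1. The lowest were KIF15 at 0.49 and 0.81, CENPE at 0.56 and 0.63, and KIF14 at 0.58 and 0.99 CPM per kilobase in sh-NC and shRBM10 libraries. Apart from the rule's names, the low-level genes were chosen after their values were seen.

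Because RBM10 regulates splicing, transcript shares within each gene were compared, although counts of overlapping transcripts are estimates. Of the 50 genes 36 had 2 or more transcripts kept. None was called by edgeR's diffSpliceDGE at an adjusted Simes p of 0.05, which called 0.0958% of genes. By the unadjusted Simes p of diffSpliceDGE 3 passed, beside 2.74% of genes, and they were CDC25C (adjusted p = 0.130), ECT2 (adjusted p = 0.798) and HMMR (adjusted p = 0.824). Each rested on 1 transcript listed at 0 in all 3 sh-NC libraries. For CDC25C, transcript NM_001318098 had 46, 20 and 25 counts in libraries A to C, or 15.0, 5.51 and 7.81% of the gene's kept counts, while the main form NM_001790 held 45.2 to 49.9% in every library. For ECT2, NM_001258315 had 53, 122 and 33 counts, or 6.63, 17.1 and 11.7%. For HMMR, NM_012484 had 24, 12 and 11 counts, or 5.57, 2.44 and 4.03%. A transcript at 0 in every sh-NC library and at 10 or more counts in every shRBM10 library occurred 3 times among 147 transcripts of the list (2.04%) and 215 times among all 34374 (0.625%). The reverse was seen for 0 of 147 and for 83 of all (0.241%). The 3 in the list are the transcripts named above, so their share restates them and is not separate evidence. A listed 0 can be a failed estimate, and no fold is given.

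Other genes of the cell cycle were counted from lists of names, also chosen with earlier results of these data known. Each gene was taken at an unadjusted edgeR p of 0.05 without a fold limit. By that rule 15.7% of all genes were higher and 8.6% lower. Without sh-NC replicate 2 these shares were 11.6 and 12.7%, and with GC content and length removed 11.4 and 15.3%. Of 20 further G2/M regulators and CDK inhibitors tested (CCNB3 was not tested), 0 were higher and 6 lower, with a median log2 fold change of -0.30. That median was -0.21 without sh-NC replicate 2, -0.16 by library size alone and -0.45 with GC content and length removed. CDC25A, the phosphatase of S phase entry, was at -1.54 (SE 0.28, edgeR adjusted p = 0.100), and GTSE1, a G2 protein that restrains p53, at -0.97 (SE 0.25). Of 17 APC/C genes 3 were higher and 1 lower (median -0.055, but 0.028 without sh-NC replicate 2 and 0.11 by library size alone), and with GC content and length removed 1 was higher and 4 lower (median -0.27). UBE2S, which extends ubiquitin chains for the APC/C, stood at -1.29 with no overlap, and CDC27, an APC/C scaffold with many pseudogene copies, at 1.32 with overlap and at 0.46 with GC content and length removed. The 31 other kinetochore genes gave 4 higher and 6 lower (median -0.20, and -0.0058 by library size alone). Without sh-NC replicate 2 they gave 0 higher and 6 lower, and with GC content and length removed 0 higher and 13 lower (median -0.40). CENPO stood at -0.83 and CENPM at -0.97, which was -0.49 with GC content and length removed, both of the inner kinetochore.

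Condensin, cohesin and separase genes gave 3 higher and 2 lower of 21, with a median of 0.65 that was 0.14 without sh-NC replicate 2 and -0.083 with GC content and length removed (then 1 higher and 5 lower). NCAPH2, of condensin II, was at -0.99 and -0.60 with GC content and length removed, and STAG2, of cohesin, at 1.21 and 0.45 with GC content and length removed. The 19 genes of the DREAM, E2F and MYB list gave 2 higher and 4 lower (median 0.26, but 0.10 without sh-NC replicate 2 and -0.25 with GC content and length removed), with E2F1, the activator of S phase genes, at -1.07 and RBL2, a pocket protein of the repressive complex, at 1.23 and at 0.62 with GC content and length removed. Other spindle and cytokinesis genes gave 2 higher and 5 lower of 28 (median -0.064, but 0.055 by library size alone and -0.30 without sh-NC replicate 2), and with GC content and length removed 0 higher and 6 lower (median -0.33). They included TROAP at -1.18 and SAPCD2 at -1.004. DNA replication and S phase genes lay mostly lower. Of 40, 1 was higher and 16 lower, with a median of -0.46, 32 of them below 0, and MCM5, of the replicative helicase, was at -1.31 and CDC45, its partner, at -1.005. Of the 40, 19 were lower without overlap, beside 16.2% of all genes, and with GC content and length removed 26 of 40 were lower at that p (median -0.56).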

How the data were processed

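RNA was sequenced from 6 libraries of PC9 cells, 3 sh-NC and 3 shRBM10. The authors deposited estimated counts per gene and per transcript, of which 87.5% of the gene values and 41.1% of the transcript values were whole. The genome build was hg38 in the submitters' processing notes. The aligner, the counter and the annotation are not given in the sources used here. The protocol text names 2 library kits, 1 of them directional. Each table also held 18 sample columns outside these libraries and 8 group mean columns, which were not used. ShRBM10 libraries B and C could not be tied to single sample titles and are named by their columns.

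Estimated counts were rounded, filtered with filterByExpr, normalized by TMM and tested with edgeR's quasi-likelihood test (edgeR 4.0.16, limma 3.58.1, R 4.3.3) with group only and Benjamini-Hochberg adjustment over 12620 genes. The standard error is the log2 fold change over the root of F. DESeq2 1.42.0 and limma-voom were alternatives. CPM used TMM library sizes, and marker sums used library totals alone. GC content and length, from GENCODE transcripts, were known for 12570 of the tested genes and all 50 members, and their trends were removed per library by splines with 5 degrees of freedom as offsets. Transcript shares were tested with diffSpliceDGE. The edgeR, DESeq2, limma-voom and diffSpliceDGE tests, and the removal of a GC trend alone, were run on simulated counts. The removal of length trends and the letter block were not. The simulated libraries had no counterpart of sh-NC replicate 2. The values of both groups carry counting error and library spread, at 3 libraries per group.

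Members and lists were chosen with earlier results of these data known. Genes were named by rule: RBM10, up to 3 per role with the smallest p, CDK1, MKI67, TOP2A and FOXM1, and the 2 with the smallest p of each other list. For transcript shares the 3 with the smallest p were named. MAD2L1, TTK, INCENP, CDCA3, CENPF, KIF11, KIF14, TPX2, CCNA2, CCNB1 and the genes named by level were added after their values were seen. Leaving out sh-NC replicate 2 together with the GC and length trends, and a block on the letter in the column names, were also added then.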

Additional observations from a re-analysis of the deposited data

How the results depend on the processing

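Among the 31 named genes under 17 alternatives each, 496 of 527 fold changes kept their direction and side of the threshold, 9 newly passed it and 22 turned sign. With GC content removed, log2 fold changes turned to -0.44 (NEK2), -0.20 (BUB3), -0.066 (HMMR), -0.20 (DLGAP5), -0.073 (ANLN), -0.10 (ECT2) and -0.16 (TOP2A). With GC content and length removed they were -0.27 (NEK2), -0.49 (BUB3), -0.080 (DLGAP5), -0.11 (ANLN), -0.094 (ECT2), -0.045 (PRC1) and -0.22 (TOP2A), and without sh-NC replicate 2 as well -0.41 (NEK2), -0.076 (KIF23), -0.19 (DLGAP5), -0.12 (ANLN), -0.19 (ECT2), -0.44 (TOP2A) and -0.18 (MKI67). Leaving out 1 library at a time, MKI67 ran from -0.16 (without sh-NC replicate 2) to 0.76. PTTG1 ran from -1.61 to -0.93, BIRC5 from -1.32 to -0.83 and FOXM1 from -1.23 to -0.84 over all alternatives, with adjusted p from 0.00762 to 0.555, 0.0120 to 0.502 and 0.0132 to 0.527. The number of genes called was 0 by edgeR and limma-voom, 3 by DESeq2, 2 with GC content and length removed and 1 without sh-NC replicate 2 as well. Over all genes these calls were 2 by edgeR, 2 by limma-voom, 574 by DESeq2 and 164 with GC content and length removed. Without sh-NC replicate 2 as well they were 273 of the 12570 genes that had also passed the filter with every library kept. Genes higher at an unadjusted p with the fold limit, 1 as reported, were 0 by limma-voom, 0 with GC content removed, 0 with GC content and length removed (with or without sh-NC replicate 2), 4 at a log2 limit of 0.58, and 0 to 5 leaving out 1 library, the 5 being without shRBM10 library C. Over all genes that rule gave 1272 as reported, 1124 by limma-voom, 266 with GC content removed and 276 with GC content and length removed. Genes lower by that rule, 3 as reported, were 1 by library size alone, 7 with GC content removed, 1 with GC content and length removed and sh-NC replicate 2 left out, 12 at 0.58, and 1 (without sh-NC replicate 2) to 5 (without library C) leaving out 1 library. All genes lower by that rule were 193 as reported, 101 by library size alone and 322 with GC content removed. Genes higher without overlap, 1 as reported, were 2 by upper-quartile and 3 by library-size scaling, 0 with GC content removed, and 1 to 17 leaving out 1 library, the 17 being without library C. Over all genes these were 1747 as reported, 1956 and 2009 by those scalings, 1619 with GC content removed and 4199 without library C. Genes lower without overlap, 17 as reported, were 29 with GC content and length removed and sh-NC replicate 2 left out. Over all genes 3576 of the 12742 tested in that fit were lower without overlap, beside 2046 of 12620 as reported. The median log2 fold change was -0.45 with GC content removed, -0.39 with GC content and length removed and -0.37 without sh-NC replicate 2 as well. Except for the alternatives' own construction, the cause was not tested. The column names of both groups carry the letters A, B and C, which no label ties to a shared culture or batch. Deviations from the group means correlated across genes with r of 0.40, -0.0040 and -0.31 in the same-letter pairs. In pairs of different letters r ran from -0.42 to 0.41. Deviations within a group sum to 0, so these values cannot show whether libraries of a letter share a batch, which was not tested. With the letter as a replicate block, a fit added after the data were seen, 3 genes (PTTG1, BIRC5 and FOXM1) were called, beside 861 of all genes, and the median was 0.041. A design of 3 libraries per group and transcript estimates limit the precision, and 1 of the 3 controls stands apart. By the chi-square over genes, shRBM10 library C also lies nearer to sh-NC replicates 1 and 3 than to libraries A and B.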
